A study of Homo sapiens with 21 samples.

Results

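Of the 21 messenger RNA libraries of the series, 12 came from cells that made the RNA-guided nuclease RfxCasR, and these 12 divide by the form in which the guide was given. In 6 of them the guides were expressed as an array, labelled NT (non-targeting) array or ANXA4 array, with 3 replicates each. In the other 6 a single guide RNA (gRNA) was expressed, labelled NT gRNA or B4GALNT1 gRNA, again with 3 replicates each. The members were chosen by these labels alone: the 6 array libraries were pooled and compared with the 6 single-guide libraries. The remaining 9 libraries of the series carried short hairpin RNAs (shRNAs) and no nuclease, and they serve here only as a reference level. The cells were HEK 293FT, an established line derived from human embryonic kidney that expresses the SV40 large T antigen, and RNA was taken 48 h after transfection with plasmids. What all 12 libraries share is therefore the cell line, the nuclease, the transfection and the time. The labels give neither the number nor the sequences of the guides in an array, and they describe 1 protocol for all libraries and no batch. Replicates are called biological without saying what was separate, so a p-value speaks only for the variation among these libraries.

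RfxCasR belongs to the Cas13 family of CRISPR nucleases, which bind a guide RNA and cut RNA that pairs with it. The nuclease also cuts a precursor transcript into its separate guides, so that an array of guides can be carried on 1 transcript. Messenger RNA libraries read the abundance of polyadenylated transcripts, and values in FPKM are fragments per unit of exon length and per unit of library depth. Differences below are array minus single-guide on the scale log2(FPKM + 1), which understates the change of low genes, and a gene is called where its adjusted p is under 0.05.

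The 2 kinds of library differed as libraries. The array libraries held 34.7 to 39.5 M reads, recovered from the steps of the FPKM values, and the single-guide libraries 24.5 to 30.7 M, with no overlap (exact two-sided permutation p = 0.00216, the smallest that 6 against 6 can give, adjusted p = 0.00253 over 7 measures). Among genes with 1 to 20 recovered reads, the read count was an even number for 85.4% to 86.9% of genes in the array libraries, 61% to 62.8% in the single-guide libraries and 61.4% to 63.7% in the shRNA libraries. Of these genes, 2.38% to 3.14% had a single read in the array libraries and 10.6% to 11.7% in the single-guide libraries. Whether a fragment was counted by its mates was not tested, so the order of depths in fragments, and the thinning to equal depth below, are not settled by these values. The array libraries held fewer genes above 0, 17761 to 18065, against 18483 to 18756 in the single-guide libraries. The shRNA libraries, at 17810 to 18204, overlapped the array libraries in this measure. After every library was thinned to the lowest depth, the ranges were 17674 to 17930 and 18463 to 18675. At least 1 FPKM was reached by 12734 to 12860 genes in the array libraries and by 13066 to 13157 in the single-guide libraries. Depth and the even counts separate every array library from every single-guide library, so in this design they and the form of the guide cannot be told apart, and their part in the results below was not tested.

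**Figure D1:**
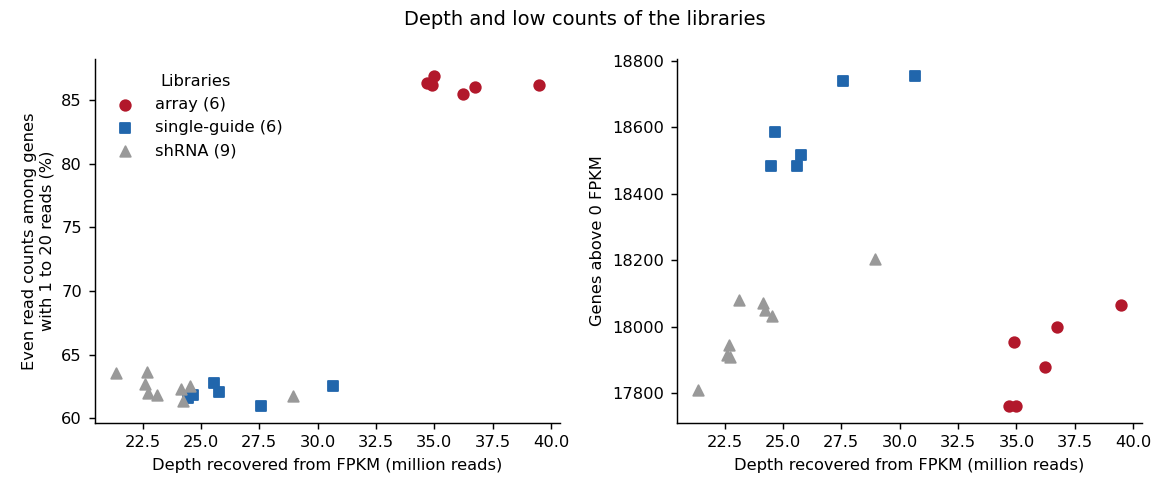
Each point is 1 library: array (red circles), single-guide (blue squares) or shRNA (grey triangles); the x axes give the depth recovered from FPKM in M reads, the left y axis the percentage of even read counts among genes with 1 to 20 reads, and the right y axis the number of genes above 0 FPKM. The 6 array libraries sit apart at 85.4% to 86.9% even counts, while the single-guide and shRNA libraries share the range from 61% to 63.7%.

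Much of the transcriptome differed between the sides, mostly by small amounts. Of 13415 genes tested with limma on log2(FPKM + 1), 8880 (66.2%) passed a Benjamini-Hochberg adjusted p under 0.05. Of these, 3759 (28%) were higher and 5121 (38.2%) lower in the array libraries. The split depends on scaling: after each library was centred on its own median the counts were 4765 higher and 4037 lower. The 6 array libraries did not overlap the 6 single-guide libraries for 5819 genes (43.4%), 2485 higher (18.5%) and 3334 lower (24.9%). The median size of a difference was 0.21 log2 over all tested genes, and 83.5% of the called differences were under 0.5 log2. At least 2-fold differences were called for 116 genes (0.865%), 28 higher (0.209%) and 88 lower (0.656%), and 42 of these were protein-coding. For 2890 genes (21.5%) the array libraries lay outside the range of all 15 other libraries, shRNA included: above it for 1273 (9.49%) and below it for 1617 (12.1%). Differences within a side were few: 11 genes (0.082%) between the libraries labelled ANXA4 array and NT array, and 1 gene (0.00745%) between the B4GALNT1 and NT gRNA libraries. The first principal component held 63.9% of the variance and separated the sides, and the second held 5.85%.

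The targeted genes check the labels. ANXA4, a calcium-dependent phospholipid-binding annexin, was at 3.22, 2.54 and 3.34 FPKM in the libraries labelled NT array and at 7.22, 6.76 and 7.12 in those labelled ANXA4 array. The 6 single-guide libraries had 6.56 to 7.6 FPKM. The libraries labelled NT array were thus the low ones, against their label, and the authors' deposited table has the opposite sign for the same comparison (-1.21 log2, adjusted p = 7.53e-17). B4GALNT1, a glycosyltransferase of ganglioside synthesis, was at 2.25, 2.35 and 2.03 FPKM in the B4GALNT1 gRNA libraries and at 5.09, 6.88 and 5.69 in the NT gRNA libraries. All array libraries had 5.02 to 6.53 FPKM of B4GALNT1, close to the NT gRNA libraries. Pooling keeps the doubt over the array labels out of the comparison, at the price that each side holds a knockdown of its own target. In the pooled comparison the sides overlapped for both genes, at -0.52 log2 for ANXA4 (limma adjusted p = 0.0267) and 0.52 for B4GALNT1 (limma adjusted p = 0.0415), and both calls rested on single groups and libraries. With only the libraries labelled ANXA4 array, ANXA4 differed by -0.00 from the NT gRNA and by -0.04 from the B4GALNT1 gRNA libraries. Its call was lost without any 1 of the libraries labelled NT array (-0.43, -0.38 and -0.44 without replicates 1, 2 and 3). The B4GALNT1 call was lost without any 1 of 8 libraries, namely the B4GALNT1 gRNA replicates, the NT array replicates and ANXA4 array replicates 1 and 2 (0.40 to 0.54).

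The difference followed the base composition and the length of transcripts. With protein-coding genes in 10 bins of GC content, the lowest bin, 29.6% to 39%, was the highest in the array libraries: its median difference was 0.12 log2, and 607 of 1205 genes were higher in the array libraries. At the other end, 62.5% to 76.8% GC, the median was -0.30. Exon length had the weaker relation: the shortest of 10 bins, 271 to 1179 bases, had a median of 0.08, and the longest, 6523 to 21241 bases, -0.18. Across 12042 protein-coding genes, which are not independent replicates, Spearman's rho of the difference was -0.44 with GC content and -0.21 with exon length. In a grid of 4 by 4 bins of both, short genes of low GC content stood at a median of 0.25 (280 of 437 called higher, 42 lower), and long genes of high GC content at -0.40 (3 of 365 higher, 328 lower). By chromosome, the median difference ran from -0.17 on chromosome 22 and -0.14 on chromosome 19 to 0.04 on chromosome 13. After the correction described below, these medians were -0.01, 0.02 and -0.02. The rank correlation of level with GC content within a library was -0.01 to 0.03 in the array libraries and 0.08 to 0.10 in the single-guide libraries. Most lists below are therefore given as measured and again after a correction, chosen after seeing the data, that removes a smooth trend in GC content and exon length from every library. After it, 4229 of 13251 genes were higher (31.9%) and 3816 lower (28.8%). Of the original calls, 6117 were kept in the same direction, 2392 were lost and 292 turned. Counts in the lists and classes below are to be read beside these shares, and beside 28% higher and 38.2% lower as measured.

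**Figure D2:**
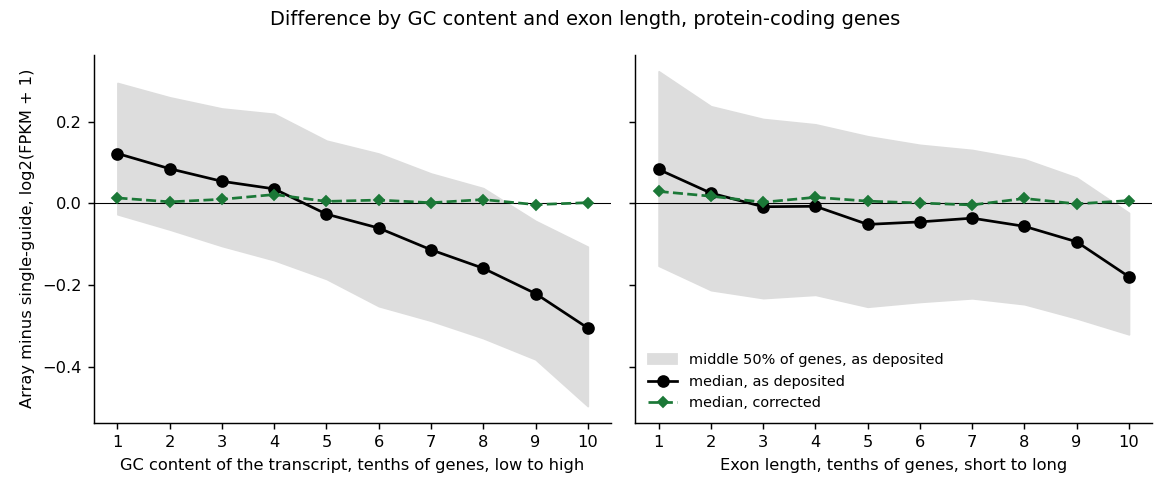
Protein-coding genes were put into 10 bins by the GC content of the transcript (left) or by exon length (right); the y axis is the difference between array and single-guide libraries in log2(FPKM + 1). Black points are medians of the deposited values, the grey band holds the middle 50% of genes, and green diamonds are medians after the correction; the medians as deposited run from 0.12 down to -0.30 over GC content and from 0.08 to -0.18 over length.

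Genes that respond to low oxygen and genes of glycolysis were mostly lower in the array libraries. Cells sense oxygen through prolyl hydroxylases of the EGLN family, which mark the factor HIF1A for destruction; when oxygen falls, HIF1A binds short sites at its target genes, among them glucose transporters and glycolytic enzymes. Of 38 measured genes of this list, 25 were lower and 7 higher in the array libraries, where 38.2% and 28% of all tested genes were. The median difference was -0.25 log2 as measured and -0.20 after the correction, when 25 were lower and 8 higher. The median of all tested genes was -0.04. Of the list, 2 members were called at least 2-fold lower. DDIT4, PPP1R3C, ANKRD37, BHLHE40 and NDRG1, described next, each fell by more than 2-fold, so at most 2 of them are members. Their falls are therefore not the result of the list. In bulk samples such as these, fewer cells of a type and less RNA per cell cannot be told apart.

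DDIT4, an inhibitor of the growth kinase mTORC1 that is induced by low oxygen and other stresses (NM_019058, hg19 chr10:74033677-74035797, plus strand), had the largest fall of any protein-coding gene. Its levels were 49.3, 57.0 and 69.0 FPKM (lowest, median and highest of the 6 array libraries) and 223, 243 and 264 in the single-guide libraries. That is -2.07 log2 (SE 0.0716, limma adjusted p = 2.72e-11), and -1.98 after the correction. The highest array library lay below the lowest shRNA library, at 132 FPKM. BHLHE40, a repressor of the circadian clock family and a known HIF target (hg19 chr3:5021097-5026865, plus strand), was at 14.04, 18.9 and 21.7 FPKM against 54.6, 59.3 and 63.6 (-1.66 log2, SE 0.0783, limma adjusted p = 3.97e-10). ANKRD37, a small ankyrin-repeat protein (hg19 chr4:186317840-186321399, plus strand), was at 3.48, 5.83 and 7.77 FPKM against 18.4, 19.7 and 21.7 (-1.67 log2, SE 0.119, limma adjusted p = 1.73e-08). PPP1R3C, which targets protein phosphatase 1 to glycogen (hg19 chr10:93388198-93392858, minus strand), was at 1.18, 2.06 and 2.54 FPKM against 8.22, 9.1 and 10.5 (-1.79 log2, SE 0.101, limma adjusted p = 2e-09). In all 3, too, no array library reached the lowest shRNA library. These 3 genes and DDIT4 were named under a rule that takes only genes without overlap between array and single-guide libraries. NDRG1, a stress-responsive protein, fell from a median of 73.8 to 33.3 FPKM (-1.17 log2, limma adjusted p = 4.95e-09, -0.92 after the correction). Taken by labelled groups, the 4 pairs of an array group and a single-guide group gave differences from -2.22 to -1.91 for DDIT4 and from -1.86 to -1.45 for BHLHE40.

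**Figure D3:**
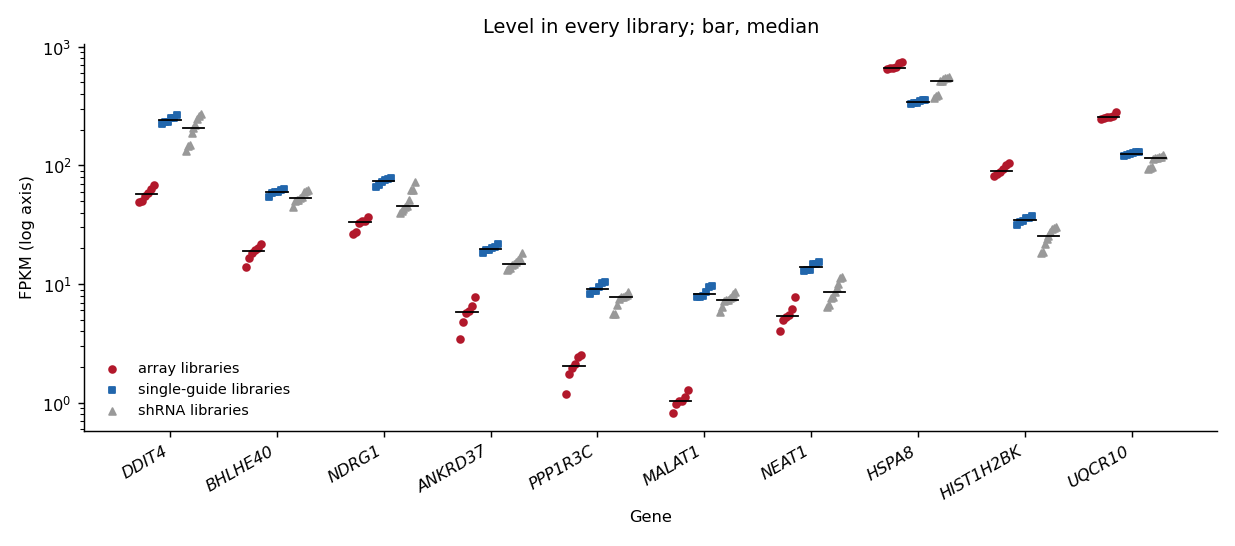
Each point is 1 library and the y axis is FPKM on a log axis. Shown are 5 genes with large falls, at most 2 of them members of the oxygen list, 2 nuclear noncoding RNAs and 3 genes with large rises. Array libraries are red circles, single-guide libraries blue squares and shRNA libraries grey triangles, with a bar at the median. For DDIT4 the array libraries lie between 49.3 and 69.0 FPKM and the single-guide libraries between 223 and 264.

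The promoters of DDIT4, PPP1R3C, ANKRD37 and BHLHE40, which with RPL7 had the largest protein-coding falls, are shown because HIF is known to bind the core letters ACGTG and GCGTG. At most 2 of these genes are members of the oxygen list. A window of 100 bases that begins at a match, and so differs in place between genes, is printed from RefSeq (GRCh38.p14, 5′ to 3′ on the gene's strand). The windows begin 125 (DDIT4), 138 (PPP1R3C), 162 (ANKRD37) and 244 (BHLHE40) bases before the annotated start. They end 26, 39, 63 and 145 bases before it. Matches to ACGTG or GCGTG on either strand are in capitals. On the other strand they read CACGT and CACGC, and neighbouring matches can overlap in CACGTG.
DDIT4, chr10:72273799-72273898, plus strand: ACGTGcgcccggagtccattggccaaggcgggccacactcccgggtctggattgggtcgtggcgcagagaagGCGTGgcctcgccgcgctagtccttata
PPP1R3C, chr10:91633110-91633209, minus strand: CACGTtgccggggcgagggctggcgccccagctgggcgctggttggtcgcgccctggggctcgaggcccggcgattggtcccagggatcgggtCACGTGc
ANKRD37, chr4:185396679-185396778, plus strand: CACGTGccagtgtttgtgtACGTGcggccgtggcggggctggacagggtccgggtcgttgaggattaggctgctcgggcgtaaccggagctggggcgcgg
BHLHE40, chr3:4979193-4979292, plus strand: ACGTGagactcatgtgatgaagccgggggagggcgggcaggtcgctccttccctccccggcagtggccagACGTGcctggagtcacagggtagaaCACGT
In the 250 bases before the start, DDIT4 and ANKRD37 held 3 matches each and PPP1R3C and BHLHE40 held 4 each. The letters are common: 43.1% of all 27305 promoters of this length and 58.8% of the 9828 promoters of tested genes held at least 1. The share was 60.6% (20 of 33) for the whole list and 65.2% (15 of 23) for its members called lower, so the list is near the share of all tested genes. A match is a description of the letters and not evidence of binding.

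Regulators and enzymes of glycolysis were among the lower members. PFKFB3, which makes the activator of phosphofructokinase, was at 23.7, 24.6 and 27.4 FPKM in the array libraries against 43.3, 43.9 and 46.1 (-0.79 log2, SE 0.0381, limma adjusted p = 4.81e-10, -0.61 after the correction). The phosphofructokinase subunits PFKL and PFKP fell by 0.65 and by 0.49 log2 (limma adjusted p = 6.24e-09 and 1.17e-09). Among members chosen after their values were seen, the glucose transporter SLC2A3 (-0.64 log2), the enolase ENO2 (-0.66) and the peptide hormone ADM (-0.65) were lower too, each with limma adjusted p at or under 1.24e-06. The 7 higher members were not all of 1 kind, and the 3 described here were also chosen after their values were seen. HIF1A itself rose from a median of 27.2 to 38.8 FPKM (0.51 log2, limma adjusted p = 5.41e-08). LDHA, lactate dehydrogenase, was higher by 0.24 log2 (limma adjusted p = 3.1e-06). GAPDH was higher by 0.27 log2 as measured (limma adjusted p = 2.04e-07) and lower by 0.16 after quantile normalization.

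Immediate early and AP-1 genes, which encode transcription factors and phosphatases switched on within minutes by growth signals and stress, had 15 of 26 measured members lower and 2 higher (median -0.24 log2, -0.07 after the correction, with 11 lower and 4 higher). FOS was at 1.78, 2.37 and 2.66 FPKM in the array libraries against 4.35, 5.42 and 5.69 (-0.93 log2, SE 0.0698, limma adjusted p = 2.77e-08). Of those chosen after their values were seen, JUN fell by 0.55, IER3 by 0.54 and DUSP1 by 0.49 log2. DUSP6, a phosphatase of the kinase ERK, went the other way, at 2.79, 3.1 and 3.48 FPKM against 0.98, 1.33 and 1.49 (0.85 log2, SE 0.0645, limma adjusted p = 3.4e-08). The other higher member, named after its values were seen, was CTGF, a secreted target of YAP (0.31 log2, limma adjusted p = 0.0124), for which the libraries overlapped.

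Genes of cholesterol synthesis and targets of SREBP, the membrane-bound factor that is released when sterols run low, were lower in 21 of 31 and higher in 4. The median was -0.17 log2, and -0.16 after the correction (19 lower, 6 higher). INSIG1, which holds the SREBP complex in the endoplasmic reticulum and is itself a target, was at 75.6, 94.4 and 100.2 FPKM against 155, 167 and 180 (-0.86 log2, SE 0.0586, limma adjusted p = 1.2e-08). The shRNA libraries overlapped the array libraries for this gene, from 75.2 to 143 FPKM. FASN, fatty acid synthase, fell by 0.72 log2 (limma adjusted p = 2.21e-10), of which -0.16 remained after the correction. HMGCS1, an early enzyme of the pathway named after its values were seen, fell by 0.39 log2. Higher members included the enzymes SC5D (0.52), NSDHL (0.27) and ACAT2 (0.13); NSDHL and ACAT2 were named after their values were seen, and ACAT2 was not called after the correction.

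Extracellular matrix, integrin and adhesion genes had the lowest median of the larger lists, -0.30 log2, with 28 of 41 lower and 2 higher. These are long transcripts, with a median exon length of 5874 bases, and after the correction 15 were lower and 6 higher, at a median of -0.05. AGRN, the basement-membrane proteoglycan agrin, was at 6.6, 7.14 and 7.49 FPKM against 15.1, 15.7 and 17.1 (-1.07 log2, SE 0.0392, limma adjusted p = 3.58e-11), and -0.49 after the correction. The laminin chain gene LAMA5 went from -0.85 to -0.16 and TLN1, talin, from -0.61 to -0.23. COL1A1, a collagen chain of fibroblasts and bone, was at 4.17, 4.76 and 5.15 FPKM against 8.63, 9.66 and 11.03 (-0.90 log2, limma adjusted p = 6.24e-09). The 2 higher members were CDH2 (N-cadherin, 0.26 log2) and ITGAV (0.15), the latter named after its values were seen. Without the library labelled NT array replicate 2, 4 were higher.

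Stress lists other than the oxygen response differed among themselves, and heat shock proteins, mostly higher, are described further below. BBC3, a pro-apoptotic BH3 protein, was at 3.92, 4.49 and 5.38 FPKM against 9.6, 10 and 10.8 (-1.01 log2, SE 0.0615, limma adjusted p = 4.03e-09). The list of ATF4 targets and amino acid supply responds to phosphorylation of the translation factor eIF2. It had 9 of 31 higher (29%) and 12 lower (38.7%), near the 28% and 38.2% of all tested genes. After the correction 14 were higher and 9 lower. Called at least 2-fold were 1 member higher and 1 lower. CHAC1, a glutathione-degrading target of ATF4, was at 5.95, 7.46 and 9.76 FPKM against 2.68, 3 and 4.29 (1.01 log2, SE 0.109, limma adjusted p = 1.22e-06). ATF4, named after its values were seen, rose by 0.26 log2, while PHGDH, the entry enzyme of serine synthesis, fell by 0.57 (limma adjusted p = 2.3e-08). Of 35 genes of the unfolded protein response, 17 were higher and 8 lower (19 and 4 after the correction), with the factor XBP1 (0.48 log2) and the disulfide isomerase PDIA3 (0.49) on the higher side.

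Sensing of double-stranded RNA and the interferon response showed no common direction. Of 31 measured members, 9 were higher (29%) and 7 lower (22.6%), where 28% and 38.2% of all tested genes were. After the correction 8 were higher and 5 lower, and 17 of the 48 listed genes were too low to test. The transmembrane restriction factor IFITM2 was at 41.2, 42.4 and 43.7 FPKM against 27.3, 27.8 and 28.9 (0.58 log2, SE 0.0255, limma adjusted p = 1.75e-10), and IFITM3 was higher by 0.50 log2. IFI6 was at 16, 17.9 and 20.7 FPKM against 29.6, 33.8 and 36.1 (-0.84 log2, SE 0.0559, limma adjusted p = 8.82e-09), and BST2, tetherin, was lower by 0.72 log2. All 4 are interferon-stimulated genes, named as called members with the lowest p. Their array and single-guide libraries did not overlap. The same held for 4 higher and 6 lower of the 31 members, and for 43.4% of all tested genes. Among 8 measured NF-kB genes, the inhibitor genes NFKBIA (0.57 log2) and NFKBIB (0.40) were higher and the subunit gene NFKB2 lower (-0.52), and after the correction 5 were higher and 1 lower. A second member was lower without B4GALNT1 gRNA replicate 2 or without the library labelled ANXA4 array replicate 1, which gave 2. Of 5 measured genes of cytosolic DNA sensing, the dNTPase SAMHD1 (0.52 log2) and the kinase TBK1 (0.40) were higher, and the nuclease TREX1 and the helicase DDX41 lower. After the correction 2 were higher and 0 lower, with TREX1 at -0.15 (limma adjusted p = 0.226) and DDX41 at -0.03 (limma adjusted p = 0.452).

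Genes for the mitochondrial ribosome, respiration, protein folding and protein turnover were mostly higher. These lists are highly expressed, with medians of 53.6 to 126 FPKM in the single-guide libraries. Of 10 bins of protein-coding genes by single-guide level, the highest had 591 of 1208 genes higher and 350 lower. The lowest had 147 of 1208 higher and 448 lower. After the correction the highest still had 600 of 1206 higher and 326 lower. The part of level in these lists was not tested. The mitochondrial ribosome makes the few proteins encoded in mitochondrial DNA; of 77 of its protein genes, 57 were higher and 5 lower (median 0.26 log2, and 0.24 after the correction, with 54 and 5). MRPL33 was at 111, 116 and 122.9 FPKM against 61.5, 68.6 and 73.8 (0.76 log2, SE 0.042, limma adjusted p = 1.66e-09). MRPS17 was higher by 0.77, MRPL50 by 0.64 and MRPS15 by 0.54 log2. The 5 lower members, named after their values were seen, were MRPL12, MRPL2, MRPS26, MRPS25 and MRPS24, by no more than 0.24 log2 (MRPL12). Without NT gRNA replicate 1 or 2, B4GALNT1 gRNA replicate 2, or the libraries labelled NT array replicate 1 or ANXA4 array replicate 2, left out 1 at a time, 3 were lower. MRPS25 lost its call without any 1 of 7 libraries (-0.13 to -0.10) and MRPS24 without any 1 of 9 (-0.11 to -0.08). Over the libraries, the median of the list lay at 0.05 to 0.20 log2 from the mean of all 12 in the array libraries and at -0.17 to -0.09 in the single-guide libraries.

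Nuclear genes of oxidative phosphorylation followed, with 45 of 77 higher and 17 lower (median 0.17 log2, 0.10 after the correction). After the correction 38 of 76 were higher and 23 lower. UQCR10, a small subunit of respiratory complex III (hg19 chr22:30163358-30166402, plus strand), had one of the largest rises: 248, 257 and 279 FPKM against 119, 125 and 129 (1.05 log2, SE 0.0309, limma adjusted p = 8.25e-12). The shRNA libraries, at 93.7 to 122 FPKM, lay with the single-guide libraries. COX7B of complex IV rose by 0.86, NDUFA3 of complex I by 0.77 and SDHB of complex II by 0.59 log2.

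Proteasome subunits, the machine that degrades ubiquitin-tagged proteins, were higher in 27 of 39 and lower in 3 (median 0.25 log2, 0.14 after the correction). PSMD6 was at 90.7, 98.4 and 102 FPKM against 64.5, 65.5 and 67.9 (0.56 log2, SE 0.0307, limma adjusted p = 1.66e-09). PSMA1 was higher by 0.52 and PSMB2 by 0.36 log2. The 3 lower members were PSMD2 (-0.24), the immunoproteasome subunit PSMB9 (-0.23) and PSMA2 (-0.11), named after their values were seen. Only 1 was lower without NT gRNA replicate 2, B4GALNT1 gRNA replicate 2 or the library labelled NT array replicate 1. PSMB9 lost its call without any 1 of 6 libraries (-0.23 to -0.18) and PSMA2 without any 1 of 5 (-0.11 to -0.09).

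Heat shock proteins and chaperonins, which fold nascent and damaged proteins, were higher in 31 of 41 and lower in 4 (median 0.23 log2, 0.20 after the correction). HSPA8, the constitutive HSP70 (hg19 chr11:122928200-122933043, minus strand), was at 654, 667 and 749 FPKM against 329, 343 and 358 (1.00 log2, SE 0.0376, limma adjusted p = 4.74e-11). Its shRNA libraries, at 372 to 553 FPKM, lay between the sides. Its cochaperone DNAJA1 rose by 0.74 and HSP90AA1, the inducible HSP90, by 0.59 log2. The 4 lower members, named after their values were seen, were the regulator HSF1 (-0.31), the stress-inducible HSPA1B (-0.22), DNAJB6 (-0.16) and DNAJB2 (-0.11). HSF1, HSPA1B and DNAJB2 were no longer called after the correction, and DNAJB2 lost its call without any 1 of 6 libraries (-0.11 to -0.08).

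**Figure D4:**
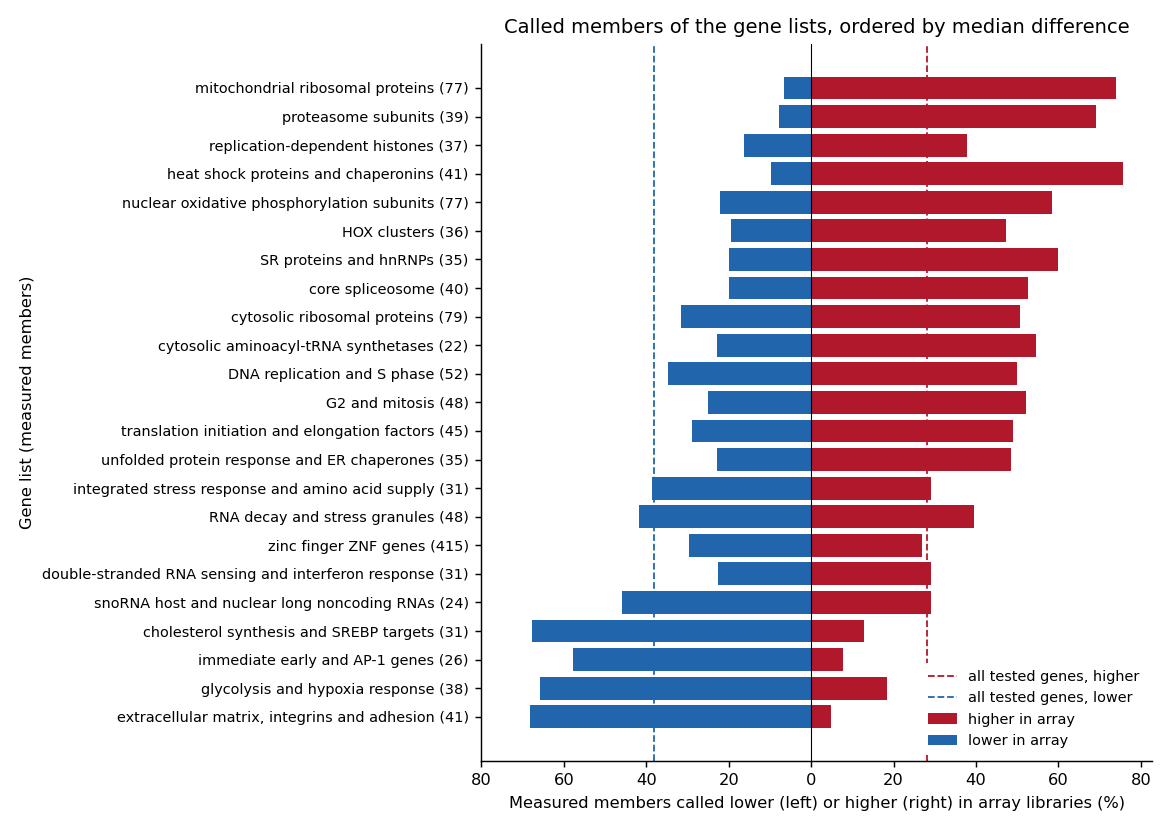
Each row is a gene list with at least 20 measured members, leaving out lists not reported here, ordered by median difference. Bars give the percentage of measured members called higher (right, red) and lower (left, blue) in the array libraries. Dashed lines give the same for all tested genes, 28% and 38.2%. Heat shock proteins and mitochondrial ribosomal proteins reach furthest to the right, and extracellular matrix and cholesterol genes furthest to the left.

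Cytosolic ribosomal protein genes did not move as a block. Of 79 measured, 40 were higher and 25 lower, at a median of 0.12 log2, which was 0.02 after the correction and -0.01 after quantile normalization. RPS24 was at 1817, 2022 and 2115 FPKM against 936, 986 and 1052 (1.02 log2, SE 0.0364, limma adjusted p = 3.04e-11), and RPL37 rose by 0.79 log2. RPS29 was at 267, 280 and 327 FPKM against 658, 672 and 726 (-1.23 log2, SE 0.0476, limma adjusted p = 5.7e-11). RPL7 was at 17.8, 20.7 and 24.4 FPKM against 65.3, 71 and 80.1 (-1.74 log2, SE 0.067, limma adjusted p = 5e-11). Ribosomal protein genes have many near-identical pseudogenes, and the share of their reads that was counted depends on the authors' mapping, so levels of RPL7, RPS29 and RPS24 are uncertain.

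Replication-dependent histones, whose messenger RNAs normally end in a stem-loop without a poly(A) tail, were measured for 37 of 73 listed genes, with 14 higher and 6 lower (median 0.23 log2, 0.16 after the correction). The list was not apart by library: its median in single libraries overlapped between the sides. HIST1H2BK (hg19 chr6:27106072-27114637, minus strand) had the largest rise of any protein-coding gene, at 81.8, 90.4 and 104 FPKM against 31.7, 34.8 and 37.6 (1.37 log2, SE 0.0591, limma adjusted p = 1.49e-10). HIST2H2BE and HIST1H2AL were higher by 1.05 and 1.12 log2 at lower levels, and the linker histone gene HIST1H1C by 0.72. HIST1H4C, named after its values were seen, was lower by 0.71 log2 (limma adjusted p = 0.000135). Histone genes resemble each other closely, and how reads were shared among them is not given in the sources used here.

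Genes of RNA processing went both ways, with more of them higher. SR proteins and hnRNPs, which choose splice sites, had 21 of 35 higher and 7 lower (median 0.13 log2, 0.08 after the correction). HNRNPC was at 304, 314 and 326 FPKM against 177, 182 and 184 (0.79 log2, SE 0.0236, limma adjusted p = 8.25e-12). HNRNPL was at 137, 143 and 149 FPKM against 217, 220 and 227 (-0.62 log2, SE 0.0244, limma adjusted p = 5.95e-11). TRA2A and RBMX rose by 0.76 and 0.62 log2. Of 40 core spliceosome genes, 21 were higher and 8 lower, and 30 were higher and 5 lower after the correction. SNRPG (0.79 log2), SNRPD3 (0.70) and LSM3 (0.68) rose, and U2AF1, which reads the end of the intron, fell by 0.53. Translation factors had 22 higher and 13 lower of 45 (23 and 13 after the correction): EEF1B2 rose by 0.53 and EIF3E by 0.50 log2, while EIF4H fell by 0.48 and EIF3B by 0.41. Among 22 aminoacyl-tRNA synthetase genes 12 were higher and 5 lower (11 and 4 after the correction), with TARS at 0.58 and QARS at -0.29 log2.

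Of 48 RNA decay and stress granule genes, 19 were higher and 20 lower as measured, and 22 higher and 13 lower after the correction. LSM1, a decapping activator, was higher by 0.56 log2, and UPF1, the helicase of nonsense-mediated decay, lower by 0.47 (-0.14 after the correction). Of 15 measured genes of microRNA and hairpin processing, 3 were higher (20%) and 6 lower (40%), against 28% and 38.2% of all tested genes. After the correction 6 were higher and 3 lower. AGO2, the slicing Argonaute, was at 9.54, 10.4 and 11.7 FPKM against 14.2, 14.9 and 16.9 (-0.50 log2, SE 0.0501, limma adjusted p = 5.2e-07). MOV10 fell by 0.57 log2, and LIN28B, which blocks the maturation of let-7, rose by 0.33.

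Cell cycle genes differed modestly. S phase genes were higher in 26 and lower in 18 of 52, and genes of G2 and mitosis higher in 25 and lower in 12 of 48. After the correction the counts were 28 and 12 for S phase and 18 and 9 for G2 and mitosis. PCNA, the replication clamp, was at 310, 322 and 329 FPKM against 236, 239 and 243 (0.42 log2, SE 0.0211, limma adjusted p = 7.05e-10), and RRM2 and PTTG1 were higher by 0.47 and 0.59 log2. INCENP fell by 0.31 log2 and was not called after the correction (-0.04, limma adjusted p = 0.259). HOX genes, which keep a positional identity, were higher in 17 and lower in 7 of 36 (18 and 5 after the correction). HOXB7 (0.79 log2), HOXA9 (0.65) and HOXA10 (0.54) rose, whereas HOXA13, at 8.04, 9.29 and 10.1 FPKM against 16.9, 17.3 and 17.7, fell by 0.84 log2 (SE 0.0427, limma adjusted p = 7.63e-10). Zinc finger ZNF genes were split, with 112 of 415 higher (27%) and 29.6% lower, and 178 higher and 65 lower after quantile normalization.

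Of 15 measured genes typical of this cell line, 5 were higher and 7 lower, and 6 higher and 5 lower after the correction. Vimentin (VIM) was at 639 to 682 FPKM in the array libraries and 551 to 588 in the single-guide libraries, and nestin (NES) at 5.23 to 6.15 and 8.75 to 9.33. Of 20 listed markers of other cell types, 14 were below the level tested, among them PTPRC, CD3E, HBB, PECAM1, ALB and INS. Of the 6 measured, 3 were lower, COL1A1 and COL3A1 among them, and LUM was higher, at no more than 1.86 FPKM in any of the 12 libraries. After the correction 2 were lower and 0 higher. Housekeeping genes, which are often used as references, were called for 14 of 15, with 9 higher and 5 lower (7 and 6 after the correction): B2M rose by 0.61 log2, and GUSB, POLR2A and SDHA fell by 0.51, by 0.49 and by 0.45. Of 8 measured annexins, the family of ANXA4, 2 were higher (25%) and 3 lower (37.5%), near the 28% and 38.2% of all tested genes. After the correction the counts were again 2 and 3. Of 11 genes of ganglioside synthesis, the pathway of B4GALNT1, 2 were higher and 5 lower (3 and 6 after the correction), and 1 was higher without any 1 of the 8 libraries on which the B4GALNT1 call rested.

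Nuclear noncoding RNAs held some of the largest falls of all. MALAT1, a long RNA of nuclear speckles (hg19 chr11:65265209-65273983, plus strand), was at 0.815, 1.04 and 1.28 FPKM in the array libraries against 7.72, 8.29 and 9.64 (-2.22 log2, SE 0.0675, limma adjusted p = 8.45e-12). The shRNA libraries lay with the single-guide libraries, at 5.85 to 8.5 FPKM, and the correction left -2.14. NEAT1, the scaffold of paraspeckles, was at 4.07, 5.4 and 7.78 FPKM against 13, 13.9 and 15.4 (-1.20 log2, SE 0.0997, limma adjusted p = 8.37e-08), and the shRNA libraries, at 6.42 to 11.4, overlapped the array libraries. RMRP and RPPH1, the RNA parts of the ribonucleases MRP and P, are short transcripts of RNA polymerase III without a poly(A) tail. RMRP was listed at 0 in at least 1 array library and reached 2.07 FPKM there, against 2.17 to 12.2 (-2.26 log2, limma adjusted p = 4.55e-05). RPPH1 had 0 to 0.65 FPKM against 2.78 to 9.58 (-2.10 log2, limma adjusted p = 8.14e-07). RPP40, a protein subunit of the same ribonucleases, went the other way, with 14.8, 17.7 and 19.4 FPKM against 6.33, 7.95 and 9.4 (1.04 log2, SE 0.0743, limma adjusted p = 1.81e-08).

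Long noncoding RNAs that host small nucleolar RNAs or stay in the nucleus went both ways, with 7 of 24 measured higher and 11 lower (7 and 13 after the correction). SNHG1 was at 137, 149 and 152 FPKM against 81.1, 91.5 and 99.7 (0.69 log2, SE 0.042, limma adjusted p = 3.99e-09). SNHG5 was at 104, 114 and 126 FPKM against 186, 201 and 211 (-0.80 log2, SE 0.0524, limma adjusted p = 7.55e-09), and GAS5, named after its values were seen, fell by 0.45 log2. TUG1, also named after its values were seen, was higher by 0.40 log2 (limma adjusted p = 8.89e-06).

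Annotations of microRNA precursors include the largest single difference, that of MIR3610. A precursor is a short hairpin that is cut out of a longer transcript, and a library of polyadenylated RNA is not made to capture the mature microRNA. The annotations tested had a median length of 71 bases. The class was taken by gene symbol, so beside the precursors it holds some longer host transcripts, such as MIR600HG. Of 319 annotations tested in this class, 117 were lower (36.7%, near the 38.2% of all tested genes) and 37 higher (11.6%, against 28%). Their median was -0.29 log2, against -0.04 for all genes. After the correction 71 were lower and 75 higher, at a median of 0.00. Their median GC content was 61.2%, against 49.9% for all tested genes, and in the highest of 4 bins of GC content, 68.3% to 87.9%, 40 of 80 were lower and 6 higher. Of 269 that lie inside a tested gene on the same strand, 35 were higher and 93 lower, and the host genes had a median difference of 0.01 log2 for the 35 and -0.29 for the 93.

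The mature sequences of 4 precursors with large differences are printed from RefSeq (GRCh38.p14), 5′ to 3′, with the seed, bases 2 to 8, in capitals; MIR6801 and MIR6717 were higher and MIR5703 and MIR3648-2 lower in the array libraries. MIR6717, MIR5703 and MIR3648-2 were chosen after their values were seen.
hsa-miR-6801-5p: uGGUCAGAggcagcaggaaauga
hsa-miR-6801-3p: aCCCCUGCcacucacuggcc
hsa-miR-6717-5p: aGGCGAUGuggggauguagaga
hsa-miR-5703: aGGAGAAGucgggaaggu
hsa-miR-3648: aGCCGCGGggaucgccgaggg
No seed is shared among them. The mature hsa-miR-3648 is the most GC-rich of them, at 81%, and hsa-miR-6801-5p the least, at 52.2%.

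Host genes are named for their precursors, whatever their values. MIR6801 lies inside PPP2R1A, the scaffold subunit of protein phosphatase 2A (hg19 chr19:52725273-52725351, plus strand). The precursor annotation was at 37.7, 51.1 and 62.7 FPKM against 12.1, 13.8 and 17.3 (1.79 log2, SE 0.112, limma adjusted p = 5.09e-09), while PPP2R1A as a whole fell by 0.29 log2. MIR6747 rose by 1.53 log2 inside the elongation factor gene EEF1G, which differed by -0.05 (limma adjusted p = 0.0888) and was called when the library labelled ANXA4 array replicate 1 or 2 was left out (-0.06 each). The largest rise was that of MIR6844, at 43, 51.3 and 56.2 FPKM against 7.31, 11.1 and 18.4 (2.08 log2, limma adjusted p = 7.65e-08), inside the nuclease gene TATDN1 (0.18 log2, and -0.11 after the correction). MIR6717, behind these in size, rose by 1.16 inside NDRG2 (0.01 log2, limma adjusted p = 0.829). MIR3610 stood at the other extreme (hg19 chr8:117886967-117887039, minus strand), at 1.19, 2.27 and 3.4 FPKM against 66.2, 75.4 and 81.9 (-4.61 log2, SE 0.159, limma adjusted p = 2.72e-11). It lies at the start of the cohesin gene RAD21, which as a whole was at a median of 94.2 against 94 FPKM (0.00 log2, limma adjusted p = 0.961, and -0.09 after the correction, limma adjusted p = 0.000802). MIR1244-1, in PTMA and named after its values were seen, fell by 1.71 log2 while PTMA, prothymosin alpha, rose by 0.56. In these cases a short stretch of a transcript and the whole transcript did not move together, and which reads fell on the stretch was not tested.

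Of 50 annotations of this class that were given no host gene, 24 were lower and 2 higher. They include host transcripts that are not precursors, such as MIR210HG, MIR600HG, MIR4697HG and MIR663AHG (lower) and MIR4435-2HG (higher). Such transcripts were not counted as hosts, so MIR600, inside MIR600HG, is among the 50. MIR3687-1 and MIR3648-2 are neighbours on chromosome 21 (hg19 chr21:9826203-9826263 for MIR3687-1 and chr21:9825832-9826011 for MIR3648-2). MIR3687-1 was at 0, 0.461 and 2.39 FPKM against 9.07, 15.6 and 31 (-3.46 log2, SE 0.312, limma adjusted p = 1.91e-07). MIR3648-2 was at 0.566, 1.69 and 3.04 FPKM against 9.74, 17.5 and 28.2 (-2.76 log2, SE 0.242, limma adjusted p = 1.43e-07). MIR5703 fell by 2.84 log2, and MIR6087, named after its values were seen, was at 39.7, 84.4 and 166 FPKM against 410, 579 and 954. The copies MIR3687-1 and MIR3687-2 carry the same coordinates and values in the deposited table, and reads of near-identical copies cannot be assigned to 1 of them.

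**Figure D5:**
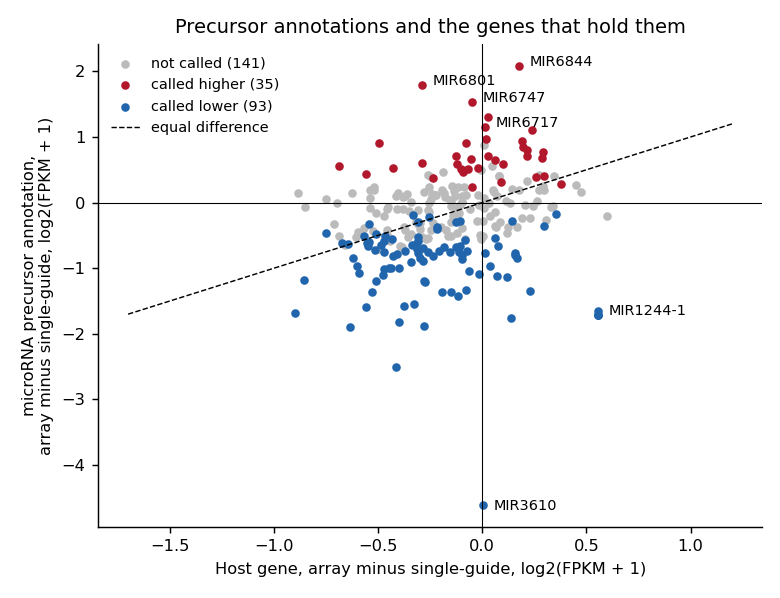
Each point is a microRNA precursor annotation inside a tested gene on the same strand; the x axis is the host gene's difference and the y axis the precursor's, both array minus single-guide in log2(FPKM + 1), with called precursors in red (35 higher) and blue (93 lower), and the dashed line marks equal differences. MIR3610 lies at -4.61 above a host difference of 0.00, and MIR6801 at 1.79 with a host difference of -0.29.

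Small nucleolar RNAs guide the modification of ribosomal RNA and are also not polyadenylated. Of 148, 38 were higher (25.7%, near the 28% of all tested genes) and 14 lower (9.46%, against 38.2%). The median was 0.04 log2, and 0.13 after the correction, when 28 of 121 were higher and 9 lower. SNORA7A was at 8.01, 12.3 and 15.4 FPKM against 2.07, 3.68 and 6.84 (1.34 log2, SE 0.19, limma adjusted p = 1.87e-05), and SNORD88C was higher by 1.44 log2 at lower levels. SNORD38A was at 0, 0.803 and 1.17 FPKM against 2.33, 3.06 and 4.67 (-1.45 log2, SE 0.192, limma adjusted p = 9.76e-06). Of 629 other noncoding RNAs, 143 were higher (22.7%) and 171 lower (27.2%), and of 243 pseudogenes 66 (27.2%) and 75 (30.9%).

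Several of the largest protein-coding differences lay outside the lists. NOG, the secreted BMP antagonist noggin, was at 1.36, 2.08 and 2.61 FPKM against 5.82, 6.94 and 7.39 (-1.38 log2, SE 0.0857, limma adjusted p = 4.84e-09). HES5, a repressor downstream of Notch, was at 0.828, 1.19 and 2.64 FPKM against 3.57, 5.09 and 6.2 (-1.36 log2, SE 0.153, limma adjusted p = 1.84e-06), and its shRNA libraries, at 0.828 to 4.36, overlapped both sides. BRI3, a small membrane protein, was at 20.9, 22.7 and 24 FPKM against 55.6, 58.5 and 62.9 (-1.34 log2, SE 0.0385, limma adjusted p = 8.25e-12). B4GALNT4, a relative of the targeted B4GALNT1, fell by 1.22 log2 and PLPPR3 by 1.204, and after the correction they stood at -0.82 and -0.77. On the higher side, FAIM, an inhibitor of FAS-induced apoptosis, was at 36.9, 38.3 and 42.7 FPKM against 15, 15.2 and 17.2 (1.25 log2, SE 0.0435, limma adjusted p = 2.72e-11). The glutamate transporter SLC1A3 was at 9.15, 9.97 and 11.6 FPKM against 3.86, 4.49 and 5.06 (1.03 log2, SE 0.0615, limma adjusted p = 3.22e-09). ZMPSTE24, the protease that matures lamin A, rose by 0.96 log2 and TSACC, a cochaperone-like protein, by 1.06. NOG, HES5, BRI3, PLPPR3, FAIM, ZMPSTE24, SLC1A3 and TSACC were named under a rule that takes only genes without overlap between the sides.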

How the data were processed

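Messenger RNA libraries of transfected HEK 293FT cells were analysed from the authors' deposited FPKM table, made per the file headers with HOMER from exon reads on the sense strand of hg19 genes, condensed to 1 entry per gene; the submitters' processing notes also name STAR, FastQC, DESeq2 1.14.1 and R 3.3.2. From the authors' deposited table of the labelled ANXA4 and NT array libraries, only the log2 fold change and adjusted p-value of ANXA4 were taken. Its other column, in the unit of signal (a mean normalized count, per the file headers), is not printed. The members, the gene lists and the naming rule were chosen with earlier results of these data known.

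Of 27142 entries, 13415 with at least 1 FPKM in at least 3 of the 12 libraries were tested with limma 3.58.1 in R 4.3.3 on log2(FPKM + 1), with 1 mean per side, a variance trend and Benjamini-Hochberg adjustment over all of them. The fit was tested on simulated data. Named genes were ANXA4 and B4GALNT1, genes among the 12 largest protein-coding changes in each direction without overlap, the called members of each list with the lowest p (up to 4), and for each noncoding class the 3 largest called changes either way. Other names are marked as chosen after their values were seen.

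Depth was recovered from the FPKM steps, with 95.6% to 99.2% of values within 0.1 of a whole read. GC content was that of the GENCODE transcript with the gene's RefSeq accession and the closest length, or else the longest of its symbol. Correcting for GC content and exon length (splines with 4 degrees of freedom) and the even-count and GC measures were chosen after seeing the data. No replicate number was shown to pair libraries: correlations of deviations ran from -0.15 to 0.09. Replicates differed beyond sampling noise (chi-square per degree of freedom 2.25 to 13). Sequences came from RefSeq (GRCh38.p14) and were matched by symbol or microRNA name. Some genes and lists are not reported here.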

Additional observations from a re-analysis of the deposited data

Results flagged for a closer look

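The 360 sets examined were each 6 libraries for 1 gene or 1 library measure. Of these, 17, all of genes, had 1 library at an end of the range. Its gap to the nearest of the others was beyond Dixon's 95% critical value for the whole range, and chance gives about 1 in 20. In the array libraries 9 genes had a lone low library. SNHG1 was at 137.2 FPKM in the library labelled NT array replicate 1, and PSMD7 at 110.3 in the same library. In labelled NT array replicate 2, INSIG1 was at 75.6, RPS24 at 1817 and SLC2A3 at 33.5 FPKM. HSP90AA1 was at 988 FPKM in labelled ANXA4 array replicate 2. HSPB11 was at 55.7 and TRA2A at 57.6 FPKM in labelled ANXA4 array replicate 1, and MIR1244-1 at 19.6 in labelled NT array replicate 3.

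In the single-guide libraries, B4GALNT1 gRNA replicate 2 stood apart for 5 genes: RPS29 (726 FPKM), HNRNPL (227) and EEF1G (485) were high, and CTGF (3.82) and COL3A1 (2.63) low. FOS was low in NT gRNA replicate 1, at 4.35 FPKM. ATF4 was low in B4GALNT1 gRNA replicate 3, at 244.8, and PTMA in B4GALNT1 gRNA replicate 1, at 524 FPKM.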

How the results depend on the processing

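The called count (8880) stayed within 1.5 times of itself under each alternative run; leaving out each library in turn gave 8518 to 8834, and the replicate block gave 8806 (3736 higher, 5070 lower), with numbers that were not shown to pair libraries. With at least 5 FPKM in 6 libraries, 3406 of 9088 genes were lower; fewer genes were tested. The share of called genes that were higher, 42.3%, was 54.1% after centring (4765 higher, 4037 lower), 51% after quantile normalization, 49.3% with voom on recovered reads and 52.6% after the correction. The median of long minus that of short genes was -0.26 log2, -0.16 with a pseudocount of 5, -0.16 after quantile normalization and -0.022 after the correction. B4GALNT1 turned to -0.12 between the libraries labelled ANXA4 array and NT gRNA, and lost its call under the replicate block. TATDN1 turned to -0.11 and DNAJB2 to 0.052 after the correction, and GAPDH to -0.16 after quantile normalization. The cause was not tested. Under all alternatives other than leaving out 1 library, 92 results of single genes lost a call, 4 gained one, 4 turned and 3272 stayed. Of the values of lists and classes, 316 moved and 1931 did not. Moved means a median shifted by at least its spread among libraries, or a count changed by more than 1.5 times. Genes under a few FPKM, precursors and snoRNAs rest on few reads.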
